A study of Mus musculus with 6 samples.

Results

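Fmo1, Fmo2, Fmo4 and Fmo5, which encode flavin-containing monooxygenases, are 4 of the 25140 genes in the count table of cultured mouse cardiac fibroblasts treated with TGFβ. The 4 genes were taken by their symbols and were selected on their measured difference between TGFβ and vehicle in these same libraries, so their fold changes are given as a description and without a test. Messenger RNA was sequenced from 3 vehicle and 3 TGFβ libraries of primary fibroblasts from the adult heart of C57BL/6 mice, at passage 1. All cells were grown in medium with 10% FBS and then held in 1% FBS, for 16 h by the labels, while the methods text gives a longer time. TGFβ was then given at 10 ng/mL for 24 h, and the vehicle cells received none. By the labels these are cardiac fibroblasts, while parts of the study's text call the sequenced cells embryonic fibroblasts, and the names in the labels are used here.

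Flavin-containing monooxygenases are membrane enzymes of the endoplasmic reticulum. They carry FAD, take electrons from NADPH, and hold a reactive oxygenated flavin until a substrate with a soft nitrogen or sulfur atom arrives, which they oxygenate. They are best known for the metabolism of drugs and dietary amines in liver, kidney and lung. FMO1 is also known to oxidise hypotaurine to taurine, FMO2 is known as the form of the lung, and FMO5 acts less on amines and sulfides and more as a Baeyer-Villiger enzyme that inserts oxygen beside a carbonyl group. FMO4 is the least characterised of the 4 enzymes.

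In the GRCm38 build (mm10), 3 of the 4 genes lie on the minus strand of chromosome 1. Fmo4 (ENSMUSG00000026692) spans chr1:162793188-162813972, Fmo1 (ENSMUSG00000040181) spans chr1:162829561-162866610 and Fmo2 (ENSMUSG00000040170) spans chr1:162874317-162898726. Fmo5 (ENSMUSG00000028088) lies apart, on the plus strand at chr3:97628804-97655282. The members on chromosome 1 lie in the order Fmo4, Fmo1 and Fmo2, with 15.6 kb between Fmo4 and Fmo1 and 7.7 kb between Fmo1 and Fmo2.

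The starts of the 4 coding sequences are shown because the FAD-binding site is the feature that the enzymes share and because similar paralogs could share reads. They come from the GENCODE annotation of GRCm38, run 5′ to 3′, and carry in capitals the codons of the first glycine motif of the form Gly-x-Gly-x-x-Gly.
Fmo1: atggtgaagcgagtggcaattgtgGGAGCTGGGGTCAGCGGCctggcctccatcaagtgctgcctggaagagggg
Fmo2: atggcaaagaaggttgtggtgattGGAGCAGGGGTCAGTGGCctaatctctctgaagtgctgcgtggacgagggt
Fmo4: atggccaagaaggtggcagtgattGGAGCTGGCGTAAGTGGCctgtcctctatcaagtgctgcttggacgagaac
Fmo5: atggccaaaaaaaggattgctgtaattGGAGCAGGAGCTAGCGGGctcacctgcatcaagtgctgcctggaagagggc

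The motif begins at codon 9 in Fmo1, Fmo2 and Fmo4 and at codon 10 in Fmo5. When the starts were aligned on the motif, between 49 and 59 of 75 bases were the same in a pair of members, with the most between Fmo2 and Fmo4. Over the whole coding sequence, 58.4% to 61.9% of aligned bases were identical between members. No stretch of 75 bases, the length of the reads, was shared between the longest protein-coding transcript of a member and an annotated transcript of another gene, and no other annotated gene overlapped a member.

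Of the members, 3 of 4 matched the RefSeq promoter table, and Fmo1 did not. The upstream sequence of Fmo2 is shown because Fmo2 lies next to Fmo1 and had nearly the same fold change. It covers the 250 bases before the outer of 2 RefSeq starts on the minus strand of GRCm38.p6, chr1:162898759-162899008, and the window before the inner start covers chr1:162898494-162898743.
Fmo2 upstream: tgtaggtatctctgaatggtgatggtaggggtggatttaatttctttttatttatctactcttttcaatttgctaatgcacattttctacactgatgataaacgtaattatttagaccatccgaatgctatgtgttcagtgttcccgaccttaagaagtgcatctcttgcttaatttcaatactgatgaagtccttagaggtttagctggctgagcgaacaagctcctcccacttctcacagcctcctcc

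The outer window is 39.6% G and C and the inner window 47.6%, against a median of 52.4% over all 32841 RefSeq promoters and a 10th percentile of 38.8%. Searched on both strands, neither window held any of TGANTCA, the site of AP-1, CAGAC, the box bound by SMAD proteins, CANNTG, the E-box, TATAAA, or GCGTG, the core of the xenobiotic response element. Of all promoters, 6.75% held TGANTCA, 42.2% held CAGAC, 66.2% held CANNTG, 12.4% held TATAAA and 28.2% held GCGTG. The window before the RefSeq start of Fmo4 (chr1:162812550-162812799) held 1 CANNTG. The window before the RefSeq start of Fmo5 (chr3:97628769-97629018) held 1 CAGAC, 1 CANNTG and 1 TATAAA. By the GENCODE spans, the Fmo4 window lies inside Fmo4. Most of the Fmo5 window and most of the inner Fmo2 window also lie inside their genes, so these windows are not purely upstream sequence. A match is a run of letters and not a measured binding site.

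The vehicle libraries held 31072338, 29296570 and 29331999 counts and the TGFβ libraries 27851677, 28894151 and 28641986 counts, and values per library are given in this order, which pairs no libraries. Levels are counts per 1000000 counts of the library (CPM) after TMM scaling, a correction for differences in library composition. Of the 25140 genes, 14334 passed the filter on low counts and were tested. By edgeR's quasi-likelihood test, 40.7% of the genes tested had an adjusted p under 0.05, and 20.1% were lower with TGFβ. All p-values measure the spread between these libraries, which the study describes as biological replicates.

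Fmo1 and Fmo2 were the 2 members with the steepest difference: 10.8% of the vehicle mean was left for Fmo1 and 11.4% for Fmo2.
Fmo1 had 654, 750 and 833 counts with vehicle, and TGFβ left 77, 71 and 75. In CPM these were 20.6, 25.3 and 27.9 with vehicle and 2.81, 2.54 and 2.63 with TGFβ. The TGFβ libraries lay close together and far under the vehicle libraries, and the lowest vehicle level was 7.30 times the highest TGFβ level. The Fmo1 mean (± SD, n = 3) was 24.6 ± 3.74 CPM in the vehicle group and 2.66 ± 0.139 CPM in the TGFβ group, and its log2 fold change was -3.20 with a standard error of 0.14.

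Fmo2 had 778, 937 and 1304 counts with vehicle and 78, 91 and 149 counts with TGFβ, which were 24.4, 31.6 and 43.7 CPM and 2.85, 3.26 and 5.23 CPM. Its libraries spread more widely than those of Fmo1 in both groups, with 1 library of each group well above the rest, and the groups were still 4.68 times apart at their nearest libraries. The Fmo2 mean (± SD, n = 3) was 33.3 ± 9.74 CPM in the vehicle group and 3.78 ± 1.27 CPM in the TGFβ group, and its log2 fold change was -3.13 with a standard error of 0.28. The coefficient of variation of Fmo2 was 29.3% with vehicle and 33.6% with TGFβ, against 15.2% and 5.21% for Fmo1. The biological coefficient of variation that edgeR estimated for Fmo2 was 21.7%, higher than for 95.1% of the genes tested, and that of Fmo1 was 10.6%, at the 71.5th percentile. The difference in fold change between Fmo1 and Fmo2 was smaller than either standard error.

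Fmo5 had 517, 504 and 434 counts with vehicle and 193, 234 and 194 counts with TGFβ. These were 16.2, 17.0 and 14.5 CPM with vehicle and 7.06, 8.38 and 6.81 CPM with TGFβ. Fmo5 varied the least of the members among the vehicle libraries, with a coefficient of variation of 7.86%, and the groups did not overlap. The Fmo5 mean (± SD, n = 3) was 15.9 ± 1.25 CPM in the vehicle group and 7.41 ± 0.846 CPM in the TGFβ group. Its log2 fold change was -1.10 with a standard error of 0.10, so that 46.5% of the vehicle level was left.

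Fmo4 was close to the limit of what these libraries could measure. It had 30, 24 and 23 counts with vehicle and 5, 8 and 11 counts with TGFβ, which were 0.943, 0.809 and 0.771 CPM and 0.183, 0.286 and 0.386 CPM. The groups did not overlap, but the TGFβ libraries differed among themselves by a coefficient of variation of 35.6%. The summed Fmo4 counts were 77 with vehicle, with an exact 95% Poisson interval of 60.8 to 96.2, and 24 with TGFβ, with an interval of 15.4 to 35.7, and both intervals cover counting error only. The Fmo4 mean (± SD, n = 3) was 0.841 ± 0.0902 CPM in the vehicle group and 0.285 ± 0.102 CPM in the TGFβ group, and its log2 fold change was -1.54 with a standard error of 0.29.

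**Figure D1:**
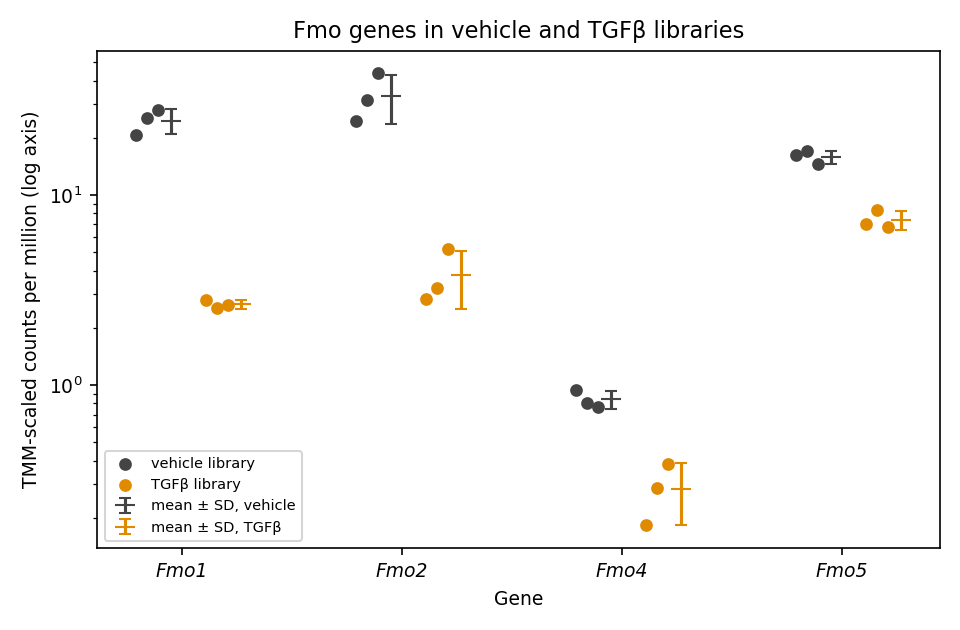
TMM-scaled CPM (log axis) of Fmo1, Fmo2, Fmo4 and Fmo5, with 1 point for each library, vehicle in grey and TGFβ in orange, and bars for the mean ± SD of 3 libraries. For each gene the 3 TGFβ points lie below the 3 vehicle points, with the widest gap for Fmo1 (24.6 against 2.66 CPM) and the narrowest for Fmo5 (15.9 against 7.41 CPM).

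The 3 TGFβ libraries lay below the 3 vehicle libraries for 4 of 4 members. The same was true of 26.1% of all genes tested, and since the members were chosen for this contrast their count carries no further information. Among the 14334 genes tested, 12 had a lower log2 fold change than Fmo1, 14 than Fmo2, 253 than Fmo4 and 541 than Fmo5. The members thus fell into a pair at the very edge of the distribution and a pair further in. The median of all genes tested was at 0.00 and the median size of a log2 fold change was 0.21. With counts as low as in its TGFβ libraries, Fmo4 passed the filter on low counts only through its vehicle libraries. Its place among the genes tested is thus partly set by that filter.

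**Figure D2:**
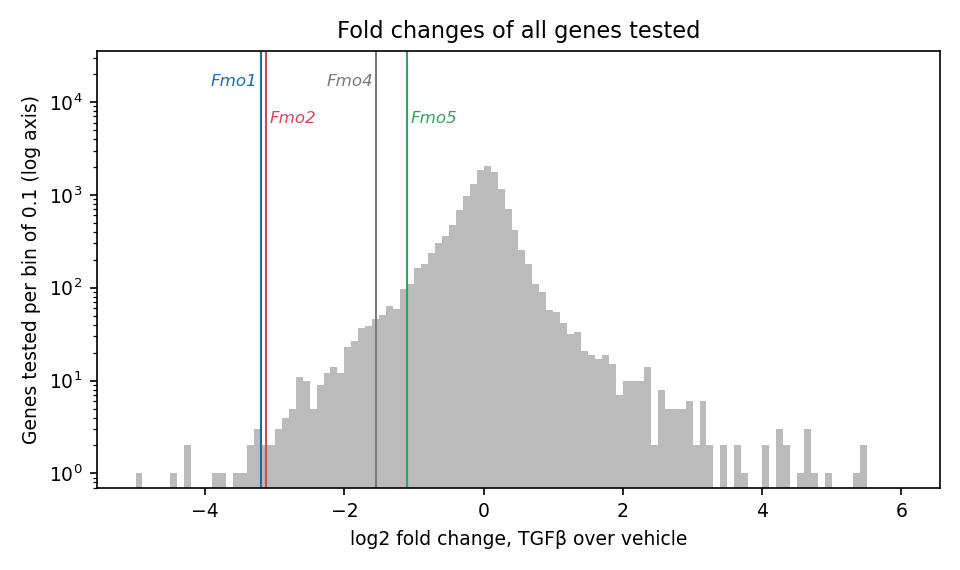
Number of genes tested (log axis) in bins of 0.1 of the log2 fold change, TGFβ over vehicle, with coloured lines at the 4 Fmo genes. Fmo1 (-3.20) and Fmo2 (-3.13) lie in the thin lower tail, and Fmo4 (-1.54) and Fmo5 (-1.10) on its slope.

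Because the members differed by unequal amounts, the make-up of the family's transcripts differed between the groups. The summed level of the 4 genes was 62.2, 74.7 and 87.0 CPM with vehicle and 12.9, 14.5 and 15.0 CPM with TGFβ, and the mean was 5.28 times higher with vehicle. Of these summed counts, Fmo1 gave 33.0 ± 0.874%, Fmo2 44.0 ± 5.66%, Fmo5 21.9 ± 4.76% and Fmo4 1.16 ± 0.322% with vehicle (SD, n = 3). With TGFβ, Fmo5 gave 52.6 ± 6.60%, Fmo2 26.5 ± 7.17%, Fmo1 19.0 ± 2.47% and Fmo4 1.99 ± 0.574%. These shares of counts were not corrected for the unequal lengths of the transcripts. Per kb of the longest annotated transcript, the Fmo5 share with TGFβ was 43.2 ± 6.04%. On that scale Fmo1 gave 40.8 ± 1.24% and Fmo2 41.4 ± 5.06% with vehicle. There were 1.26, 1.49 and 1.92 Fmo1 counts for each Fmo5 count with vehicle, and 0.399, 0.303 and 0.387 with TGFβ, so that the balance turned over in all libraries. The ratio of Fmo2 to Fmo1 counts, by contrast, overlapped between the groups, at 1.19, 1.25 and 1.57 with vehicle and 1.01, 1.28 and 1.99 with TGFβ.

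Levels of different genes were compared as CPM per kb of the longest annotated transcript, which took 3106 bases for Fmo1, 4066 for Fmo2, 2683 for Fmo4 and 5197 for Fmo5. With vehicle, the order was Fmo2 at 8.18 ± 2.40, Fmo1 at 7.92 ± 1.20, Fmo5 at 3.07 ± 0.241 and Fmo4 at 0.313 ± 0.0336 CPM per kb (SD, n = 3). Fmo2 and Fmo1 did not differ beyond their spread, since Fmo1 was the higher in the first and the second of the vehicle libraries (6.62 against 6.01 and 8.14 against 7.77) and Fmo2 in the third (10.8 against 8.99). Fmo5 lay below both in every vehicle library, at no more than 3.27 CPM per kb. With TGFβ, the order was Fmo5 at 1.43 ± 0.163, Fmo2 at 0.929 ± 0.312, Fmo1 at 0.857 ± 0.0447 and Fmo4 at 0.106 ± 0.0378 CPM per kb. Fmo5 was the highest in each TGFβ library, but its margin over Fmo2 was narrow in the third, at 1.31 against 1.29, and Fmo2 and Fmo1 again overlapped.
The longest Fmo1 transcript is annotated as a retained intron. With its longest protein-coding transcript of 2388 bases, a scale added after the data were seen, Fmo1 stood at 10.3 ± 1.56 with vehicle and 1.12 ± 0.0581 CPM per kb with TGFβ and came before Fmo2 in both groups. Among the levels per kb of all genes tested, Fmo1 and Fmo2 stood near the middle with vehicle, at the 57.5th and 58.3rd percentile, and at the 19.3rd and 20.4th with TGFβ. Fmo5 moved from the 36.8th to the 25.8th percentile and Fmo4 from the 8.04th to the 2.05th.

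**Figure D3:**
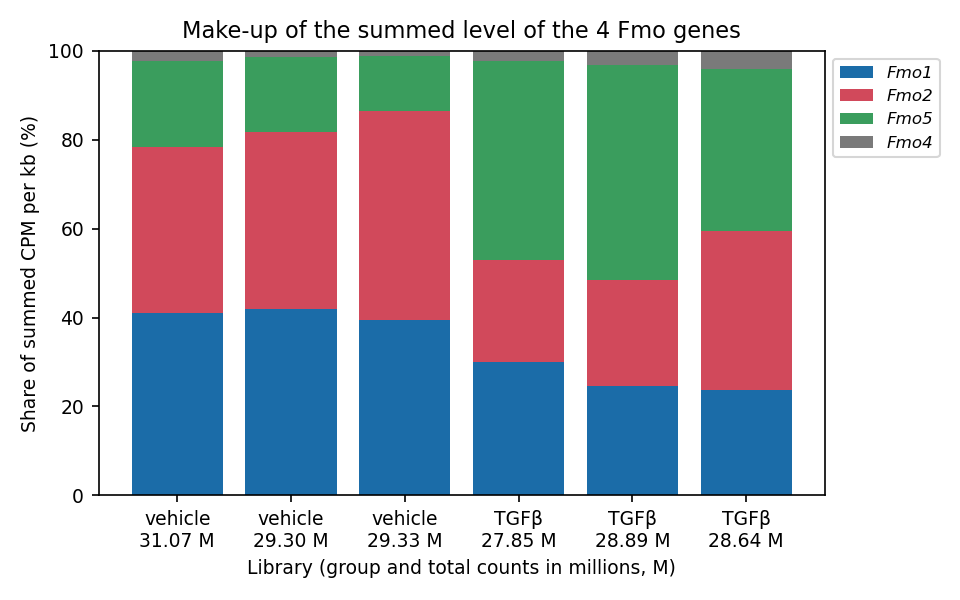
Share (%) of the summed CPM per kb of the 4 Fmo genes taken by each gene, 1 bar for each library, labelled by group and by total counts. Fmo1 and Fmo2 together fill most of each vehicle bar, and the Fmo5 share is 16.2 ± 3.61% with vehicle and 43.2 ± 6.04% with TGFβ (SD, n = 3).

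Fmo6, which lies beyond Fmo2 on chromosome 1 and starts 38.8 kb from it, was barely detected and did not pass the filter. It had 2, 0 and 0 counts with vehicle and 1, 1 and 0 with TGFβ. The group sums were equal, at 2 and 2 counts (exact 95% Poisson interval 0.242 to 7.22 each), and a difference was not detectable at this depth. Fmo9 is not listed in the table and was not analysed here.

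For each member, the 3 genes, out of those averaging 5 CPM or more, with the most similar pattern over the 6 libraries were found by the root mean square difference of log2 CPM, after each gene was centred on its own mean. Fmo1 was nearest to Tnxb, which encodes the matrix protein tenascin-X (difference 0.12), Eef1a2, an elongation factor of translation (0.13), and Gfra1, a receptor for GDNF (0.25). Tnxb had 1924, 2425 and 2575 counts with vehicle and 226, 264 and 262 with TGFβ, and like Fmo1 it was lowest in the first of the vehicle libraries and near level across the TGFβ libraries. Fmo2 was nearest to Serpina3f, a serine protease inhibitor (0.10), Pamr1, a secreted protease-like protein (0.11), and Cxcl5, a chemokine for neutrophils (0.15). Serpina3f had 445, 490 and 817 counts with vehicle and 43, 54 and 96 with TGFβ, and shared with Fmo2 a high value in the last library listed for each group. Fmo1 and Fmo2 differed from each other by 0.31 on the same measure.
Fmo4 was nearest to Ablim3, an actin-binding LIM protein (0.14), Rtn4rl2, a Nogo receptor homolog (0.17), and Klf15, a Kruppel-like transcription factor (0.19), whose vehicle mean was 21.4 ± 1.35 CPM and TGFβ mean 8.08 ± 1.05 CPM. Fmo5 was nearest to Oplah, which encodes 5-oxoprolinase of the glutathione cycle (0.06), Bicc1, an RNA-binding protein (0.07), and Plcl2, an inactive phospholipase C-like protein (0.08). Oplah stood at 44.5 ± 3.25 CPM in the vehicle group and at 21.7 ± 1.83 CPM in the TGFβ group. Fmo4 and Fmo5 differed by 0.32 from each other, and by 0.92 to 1.10 from Fmo1 and Fmo2. These pairs follow from the fold changes and are no second result. These distances describe 6 libraries of which the group difference makes up most, and the neighbours were picked by that difference.

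The difference at Fmo1 and Fmo2 was set beside that of the genes next to them. Of the 14 protein-coding genes outside the Fmo family that start within 1 Mb of Fmo1, Fmo2 or Fmo4, 12 were listed and 9 were tested. Of these, 1 rose and 1 fell, which is 22.2% of those tested against 40.7% of all genes tested, and their median log2 fold change was 0.01. The nearest tested gene was Prrc2c, 73.4 kb from Fmo4, which encodes a protein of stress granules and whose libraries overlapped between the groups (log2 fold change -0.01, standard error 0.09, adjusted p = 0.917 by edgeR). Prrx1, a homeobox factor of mesenchymal cells that starts 415.0 kb from Fmo2, fell from 274 ± 20.5 to 158 ± 7.07 CPM (log2 fold change -0.80, standard error 0.06, adjusted p = 7.49e-05 by edgeR). Suco, 937.3 kb from Fmo4 on the far side, rose by 0.34 on the log2 scale (standard error 0.06, adjusted p = 0.00262 by edgeR). Among the untested neighbours, Myoc, 174.8 kb from Fmo4, was picked out after its values were seen, with 10, 14 and 9 counts with vehicle and 0 in each TGFβ library.
Around Fmo5 on chromosome 3, 23 of 31 neighbours were listed and 20 were tested. Of these, 5 rose and 3 fell, which is 40% of those tested against 40.7% of all genes tested. Their median log2 fold change was 0.07. The genes nearest to Fmo5 on either side were Chd1l, a chromatin remodeller 18.6 kb away, and Prkab2, a subunit of AMP-activated kinase 29.4 kb away. Neither passed the threshold, with log2 fold changes of 0.23 (standard error 0.09, adjusted p = 0.0715) and 0.07 (standard error 0.08, adjusted p = 0.531) by edgeR.

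**Figure D4:**
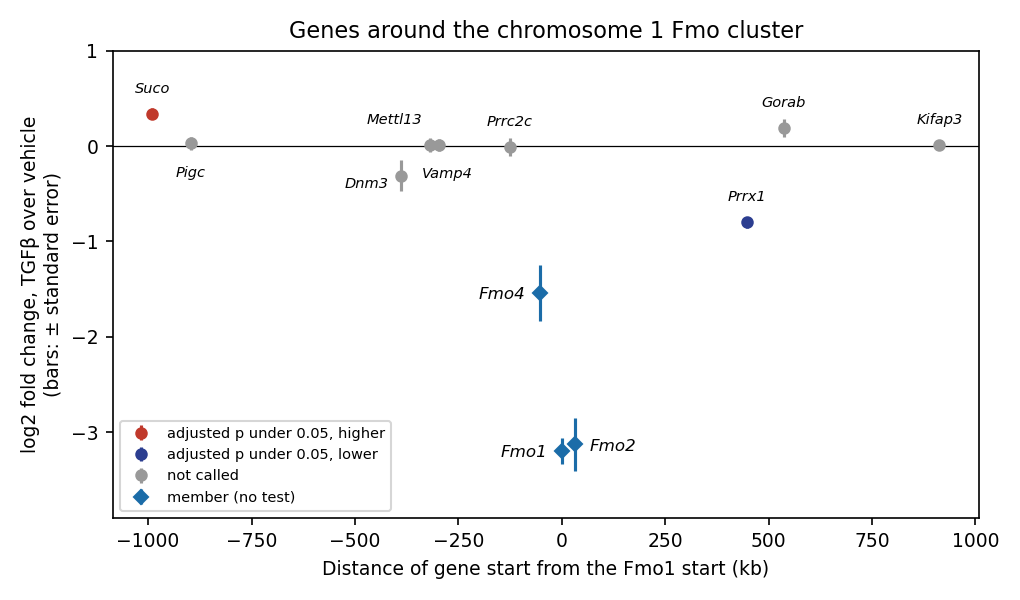
log2 fold change, TGFβ over vehicle (± standard error), of the tested genes around the chromosome 1 Fmo cluster against the distance of their start from that of Fmo1 in kb; diamonds mark Fmo4, Fmo1 and Fmo2 and circles the other genes. The other genes lie between -0.80 (Prrx1) and 0.34 (Suco). The 3 Fmo genes, which were selected on this difference, lie between -1.54 and -3.20.

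Genes with related functions were described from 6 lists, of which 33 of 41 genes were tested. Of these, 7 rose and 13 fell, which is 60.6% against 40.7% of all genes tested, and their median log2 fold change was -0.14. None of them fell as far as Fmo1 or Fmo2, which were selected on this difference.
Of 6 tested enzymes of other families that oxidise amines, aldehydes and polyamines, 4 fell and none rose (66.7% called), with a median log2 fold change of -0.86. The polyamine oxidases Smox (-0.16) and Paox (-0.12) did not pass the threshold. Aoc3, the vascular adhesion amine oxidase, fell from 45.7 ± 7.42 to 14.1 ± 0.679 CPM (log2 fold change -1.70, standard error 0.12, adjusted p = 4.64e-05 by edgeR), beside -1.54 for Fmo4. Maoa, the monoamine oxidase of the mitochondrial outer membrane, had the smallest adjusted p of the list and fell from 80.0 ± 3.50 to 45.0 ± 1.51 CPM (log2 fold change -0.83, standard error 0.05, adjusted p = 1.86e-05 by edgeR).
Of 5 tested flavoprotein monooxygenases of other families, 4 rose and none fell (80% called), and their log2 fold changes had a median of 0.22. Coq6, which did not pass the threshold, stood at -0.18 on the log2 scale, with each TGFβ library below the vehicle libraries. Mical2, a nuclear actin-oxidising enzyme, rose from 258 ± 28.9 to 423 ± 39.9 CPM (log2 fold change 0.71, standard error 0.09, adjusted p = 0.000854 by edgeR). The call of Sqle, squalene epoxidase, was among those 4 (adjusted p = 0.0354 by edgeR) and was lost when 1 of 4 libraries was left out, with an adjusted p of up to 0.102.

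On the route on which FMO1 acts, 2 of 5 tested genes rose and 1 fell (60% called), with a median log2 fold change of 0.09. Csad, the decarboxylase that makes hypotaurine from cysteine sulfinate, fell from 33.6 ± 2.11 to 22.9 ± 0.882 CPM (log2 fold change -0.55, standard error 0.06, adjusted p = 0.000362 by edgeR). Ado, which makes hypotaurine from cysteamine, rose from 40.1 ± 1.23 to 51.7 ± 0.494 CPM (log2 fold change 0.36, adjusted p = 0.000359 by edgeR), and Slc6a6, the taurine transporter, rose by 0.61 on the log2 scale (standard error 0.13, adjusted p = 0.00729 by edgeR). The mRNA levels of Csad and Ado thus differed in opposite directions, and the reactions themselves were not measured. Cdo1 had the largest fall of the list but was not called (log2 fold change -0.64, standard error 0.28, adjusted p = 0.103 by edgeR). It gained a call under 3 of the alternatives.
Of the 6 producers of NADPH, 2 fell and none rose, with a median of -0.02. The share called, 33.3%, was below the 40.7% of all genes tested. H6pd, which makes NADPH inside the endoplasmic reticulum, fell from 456 ± 34.4 to 263 ± 27.2 CPM (log2 fold change -0.79, standard error 0.08, adjusted p = 0.000312 by edgeR), while G6pdx of the cytosol stood at 132 ± 15.2 and 132 ± 6.64 CPM.
Of 5 electron carriers, namely the P450 reductase Por and genes of cytochrome b5 and its reductases, 3 fell and 1 rose (80% called). Their median was -0.12. Cyb5a, cytochrome b5, fell from 137 ± 5.81 to 80.6 ± 2.40 CPM (log2 fold change -0.77, standard error 0.05, adjusted p = 2.3e-05 by edgeR), and Cyb5r1, a cytochrome b5 reductase, rose from 132 ± 1.30 to 184 ± 5.66 CPM (log2 fold change 0.48, standard error 0.04, adjusted p = 8.56e-05 by edgeR). The other calls of this list were small, at log2 fold changes of -0.12 for Por (adjusted p = 0.0491 by edgeR) and -0.14 for Cyb5r3 (adjusted p = 0.0397 by edgeR). Por lost its call without any 1 of the 6 libraries (adjusted p of up to 0.140) and Cyb5r3 without any 1 of 5 (adjusted p of up to 0.115).
Of 6 tested factors described as acting on Fmo genes in liver or after xenobiotics, 3 fell and none rose, with a median of -0.24. The share called was 50%, against 40.7% of all genes tested. Tiparp, a target of the aryl hydrocarbon receptor, fell by 0.37 on the log2 scale (standard error 0.08, adjusted p = 0.00866 by edgeR), and Nfe2l2, which encodes NRF2, fell by 0.24 (standard error 0.04, adjusted p = 0.00178 by edgeR). Ahr itself had a log2 fold change of -0.25 that did not pass the threshold (standard error 0.16, adjusted p = 0.255 by edgeR). Hnf4a, a liver factor, was at or near 0 in each library.

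**Figure D5:**
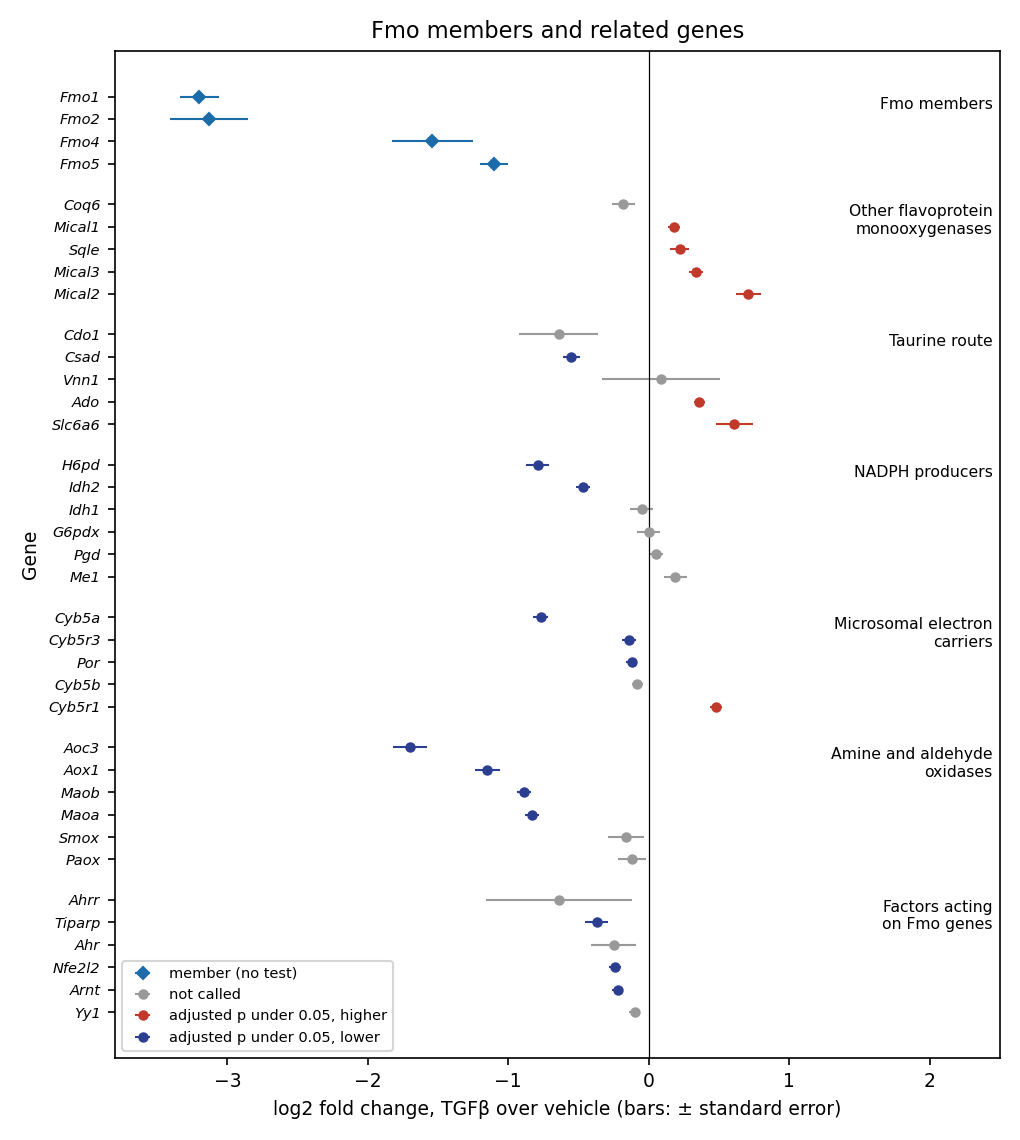
log2 fold change, TGFβ over vehicle (± standard error), of the 4 Fmo genes (diamonds, no test) and of the 33 tested genes of 6 related lists, with circles coloured by the edgeR call. The amine oxidases reach -1.70 (Aoc3), and the flavoprotein monooxygenases of other families lie between -0.18 and 0.71. Fmo1 and Fmo2, which were selected on this difference, lie below all the related genes.

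Markers were read beside these values to see which cells the libraries held. Fewer cells of a type and less RNA in each cell cannot be told apart in such bulk samples. All 5 myofibroblast markers rose, by 0.97 (Tagln) to 1.86 (Cnn1 and Cthrc1). The fibroblast markers were all present, and 7 of 9 fell. The falls ranged from Vim (log2 fold change -0.24, adjusted p = 0.0135 by edgeR) to Pdgfra, a platelet-derived growth factor receptor (-1.37, adjusted p = 1.77e-05 by edgeR). The remaining 2, the collagen genes Col1a1 and Col1a2, had log2 fold changes of 0.23 (adjusted p = 0.055 by edgeR) and 0.13 (adjusted p = 0.196 by edgeR). They were the most abundant of the list, and the summed fibroblast markers ranged from 38078.7 to 42849.5 CPM with vehicle and from 41555.3 to 45015.6 CPM with TGFβ. Fmo1 and Fmo2 had lower fold changes than each of the fibroblast markers. Since the members were selected on this difference, that comparison carries no further information. The study itself uses Pdgfra as an early sign of fibroblast activation. In embryonic fibroblasts it reports by qPCR that Pdgfra mRNA rose with TGFβ, the opposite direction to the fall in these libraries. The text ties that rise to a shorter treatment than the 24 h used here. The study also shows RNA and chromatin accessibility (ATAC-seq) tracks at Pdgfra. With TGFβ it reports more accessible chromatin in the regulatory region of that gene. Transcription at the genes it shows is described there as increased or decreased, in the directions known from earlier reports on myofibroblast formation. The study states that RNA and accessibility were measured in the same samples.
No endothelial, leukocyte, cardiomyocyte or mesothelial marker passed the threshold. The summed endothelial markers ranged from 419 to 645 CPM with vehicle and 383 to 524 CPM with TGFβ, the leukocyte markers from 235 to 335 and 205 to 302 CPM, the cardiomyocyte markers from 38.0 to 59.3 and 27.1 to 40.1 CPM, and the mesothelial markers from 24.6 to 83.7 and 16.1 to 41.6 CPM. Of the 6 cardiomyocyte markers, Myh7 was not listed and Myh6, Ttn and Actn2 lay below the filter. Tnnt2 carried most of the cardiomyocyte sum: 46.7 ± 10.5 CPM was its vehicle mean, and 34 ± 6.62 CPM its mean after TGFβ. Nppa, also tested, was scarce, with means of 0.567 ± 0.339 CPM (vehicle) and 0.628 ± 0.472 CPM (TGFβ). Of the 6 markers of smooth muscle and pericytes, Cspg4 rose (1.45, adjusted p = 0.000614 by edgeR) and Notch3 fell (-1.85, adjusted p = 1.58e-05 by edgeR). The sum of the 6 markers was 250 to 284 CPM with vehicle and 135 to 165 CPM with TGFβ. Notch3 carried most of that sum with vehicle, at 207 ± 16.7 CPM, and stood at 57.3 ± 7.58 CPM with TGFβ. Cspg4 went the other way, from 19.5 ± 3.21 to 53.3 ± 12 CPM, and the remaining markers of this list did not pass the threshold. Of the 5 adipocyte markers only Fabp4 was tested, and it fell (-0.84, adjusted p = 0.0237 by edgeR, up to 0.0843 and no longer called without 1 of 3 libraries), with Adipoq and Plin1 near 0 and Cidec and Lep not listed. Of the 5 hepatocyte markers 4 were not listed, and Apoa1 lay below the filter. The part of any other cell type in the levels of the Fmo genes was not tested.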

How the data were processed

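The authors sequenced poly(A) RNA with a stranded TruSeq kit (single-end reads of 75 bases) and deposited whole-number counts per gene for 6 libraries. Per the labels, mm10 and DESeq2 were used. The aligner, counting program, annotation and use of strand are not given in the sources used here, and a wrong split of reads between paralogs would go unseen. The deposited table also holds the authors' DESeq2 comparison (mean level, fold change, error, statistic, p and adjusted p), which was not used. All 6 columns of counts were used. Accessibility (ATAC-seq) data were not analysed here.

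Counts were fitted with edgeR 4.0.16 (R 4.3.3): filterByExpr, TMM scaling, quasi-likelihood test of 3 TGFβ against 3 vehicle libraries over the 14334 of 25140 genes kept, Benjamini-Hochberg adjustment, threshold 0.05. CPM used TMM factors, and the means and SDs are over 3 libraries. Standard errors were back-calculated as the size of the log2 fold change over the square root of the quasi-likelihood F statistic. Gene models came from GENCODE for GRCm38 and promoters from RefSeq (GRCm38.p6). The fit was run on simulated counts with 200 changed genes, far fewer than were called here. That run does not show how well the fit performs on these data. Patterns used log2 CPM with a prior count of 2. DESeq2 1.42.0, limma 3.58.1 (voom), other scalings, filters, transcript lengths and leaving out each library were tried.

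The members, the lists of related genes and markers and the rules were chosen with earlier results of these data known. Genes named were the members, Fmo6, genes starting within 1 Mb and the 3 nearest patterns for each member. Of each list at most 4 were named: the largest rise, the largest fall, the smallest adjusted p and the highest level. Genes whose call was lost without 1 library were added. The untested neighbour Myoc and a few uncalled genes (G6pdx, Ahr, Hnf4a, Smox, Paox, Coq6, Cdo1) were picked after their values were seen. Poisson intervals (95%) cover counting error only. Some items are not reported here.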

Additional observations from a re-analysis of the deposited data

How the results depend on the processing

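No paired analysis was possible because the columns of the count table carry no replicate number. Under each alternative in which they could be fitted, the log2 fold changes of the members moved by less than the pooled SD of their log2 CPM within the groups (0.17 for Fmo1, 0.44 for Fmo2, 0.40 for Fmo4 and 0.14 for Fmo5), although Fmo2 moved by more than its standard error of 0.28: Fmo1 between -3.32 and -3.10, Fmo2 between -3.45 and -2.88, Fmo4 between -1.83 and -1.31 and Fmo5 between -1.20 and -1.05, and each of these ranges was spanned by leaving out 1 library. Fmo4 gave no value with the filter of at least 1 CPM in 3 libraries. Leaving out 1 library gave 4489 to 5481 called genes, against 5828 with all, and 17 to 22 called related genes, against 20. The number of called genes was 3595 at an adjusted p of 0.01 and 971 with the added demand of a log2 fold change past 1 in size. Of the 8 places in the order of levels per kb (4 genes in 2 groups), 4 were kept with the longest protein-coding transcript, where Fmo1 and Fmo2 changed places, and 8 with the union of exons or plain library totals. Of 33 related genes tested, 26 stayed called or stayed uncalled under all alternatives run, and none of the called genes reversed. Uncalled genes could change sign. Vnn1 had a log2 fold change of 0.09 with all libraries and -0.30 without the TGFβ library of 27851677 counts. Depth limits Fmo4 and Fmo6, whose values rest on few counts.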
